A study of Homo sapiens with 4 samples.

Results

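Heat shock proteins are chaperones, proteins that help others to fold, and the ratios given here are those of 10 genes of the cytosolic and mitochondrial families: HSPA1A, HSP90AA1, HSP90AB1, HSPA8, HSPH1, DNAJB1, HSPD1, HSPE1, HSPB1 and BAG3. They were measured in the cell line EJM, which was established from human multiple myeloma, a cancer of plasma cells. Every culture, control included, carried a tetracycline-repressor-controlled transgene for the IκBα super-repressor, a form of the NF-κB inhibitor that resists signal-induced degradation. The control was uninduced EJM, and induced cells had been kept at 37 °C in doxycycline (20 µg/ml) for 1 to 4 days, with 1 two-colour array per day. The labels do not say whether the line was 1 clone. Induced cDNA carried Cy5 and control cDNA carried Cy3 on each of the 4 arrays, and the values are used as log2 of Cy5 over Cy3. Neither the direction nor the log base is stated with the deposited values, so the opposite orientation would turn each sign below and a natural log would change each fold.

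The genes were listed by name with earlier results of these arrays known, the day slopes of HSPA1A and HSP90AA1 among them, and were then selected on having a value on at least 3 arrays. Of the 10 genes, among 4604 named on the arrays, 5 had a probe under their symbol, 15 probes in all of 15246 on the arrays, and no probe was matched through an older alias. The rule kept 4 genes: HSPA1A, HSP90AA1 and BAG3 with values on all 4 arrays, and HSPD1 with values on 3. HSPD1 was just inside the rule. HSP90AB1, with values on 2 arrays, was just outside it. HSPA8, HSPH1, DNAJB1, HSPE1 and HSPB1 had no probe named for them in the annotation used here and were not analysed.

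In the cytosol, HSP70 proteins such as HSPA1A bind exposed hydrophobic stretches of unfolded proteins in a cycle driven by ATP, J-domain proteins such as DNAJB1 deliver the clients, and BAG3 and HSPH1 help to exchange the nucleotide. HSP90 takes up partly folded clients, many kinases and steroid receptors among them, while HSPD1 and HSPE1 form the folding chamber of the mitochondrial matrix. Many of these genes are induced by heat shock factor 1 through heat shock elements, short inverted repeats of GAA in their promoters, and secretory cells such as plasma cells carry a heavy folding load, chiefly in the endoplasmic reticulum (ER).

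The promoters of 3 genes are shown because the values below differ between them: HSPA1A and HSP90AA1 ran in parallel, and 1 of the 2 complete BAG3 probes took another course. Each line gives the 250 bases before an annotated RefSeq transcription start (GRCh38.p14), 5′ to 3′ on the gene's strand, with capitals marking matches to GAANNTTC or TTCNNGAA, a pair of facing heat shock units. Both motifs read the same on either strand, and neighbouring matches can overlap by sharing a GAA or TTC. The windows are chr6:31815293-31815542 (plus strand) for HSPA1A, chr14:102087045-102087294 (minus strand) for HSP90AA1 and chr10:119651130-119651379 (plus strand) for BAG3.
HSPA1A: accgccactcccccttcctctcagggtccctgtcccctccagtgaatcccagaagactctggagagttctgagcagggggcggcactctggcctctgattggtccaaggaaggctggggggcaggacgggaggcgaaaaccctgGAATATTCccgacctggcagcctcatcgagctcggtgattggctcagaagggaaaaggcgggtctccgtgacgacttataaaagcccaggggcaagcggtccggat
HSP90AA1: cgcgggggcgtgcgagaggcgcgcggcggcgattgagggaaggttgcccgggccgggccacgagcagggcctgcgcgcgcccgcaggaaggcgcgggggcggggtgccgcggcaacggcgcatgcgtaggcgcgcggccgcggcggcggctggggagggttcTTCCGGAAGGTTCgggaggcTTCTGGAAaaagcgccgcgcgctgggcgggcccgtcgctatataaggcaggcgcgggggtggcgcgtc
BAG3: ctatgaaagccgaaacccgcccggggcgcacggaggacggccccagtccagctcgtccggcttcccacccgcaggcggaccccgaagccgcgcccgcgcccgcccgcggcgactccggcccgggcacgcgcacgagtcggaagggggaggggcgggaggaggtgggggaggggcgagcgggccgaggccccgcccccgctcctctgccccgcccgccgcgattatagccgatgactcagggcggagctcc

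The HSPA1A window held 1 match, beginning 106 bases before the start. The HSP90AA1 window held 3, beginning 88, 83 and 68 bases before the start, the first 2 of them overlapping. The BAG3 window and that of the other annotated HSP90AA1 start (chr14:102139750-102139999) held none of these letters. All 10 genes were matched in the promoter table, with 16 starts between them, and 7 of the 16 windows (43.8%), from 7 genes, held at least 1 match, against 11.6% of all 35116 windows of this length. The 16 windows are not all separate, as that of HSPE1 overlaps that of 1 HSPD1 start, both without a match. Both forms were present in 4 of the 16, those of HSP90AA1, HSP90AB1, HSPA8 and HSPD1, against 0.817% of all windows. A κB consensus site was matched in 1 member window, that of an HSP90AB1 start, against 5.21% of all windows. In HSPD1, whose promoters are not printed, 1 window held 3 matches, beginning 245, 240 and 235 bases before the start. A match describes the letters and is not a binding site. Whether the matches have a part in the courses given below was not tested.

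Values were present for 10321 to 13872 probes per array, and the arrays of days 1 and 2 were the more widely spread (SD of the log2 ratio over probes 0.517 and 0.569, against 0.345 and 0.38 on days 3 and 4). The gene of the transgene, NFKBIA, had log2 ratios of -0.22, -0.067, -0.095 and -0.18 on days 1 to 4, and since it is not known which of its 5 probes detect the transgene it does not check the labels. TNFAIP3, an NF-κB target, had ratios of -1.07, -1.52, -1.58 and -1.70. Its mean was -1.47 ± 0.28 (SD, 4 arrays; limma adjusted p = 0.0178), below the control in the orientation used here.

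HSPA1A, the main stress-inducible HSP70, had gene averages above the control on days 1 and 2 and below it on days 3 and 4, but the day 2 sign rested on 1 of 3 probes and the median over the probes that day was -0.097. Averaged over the probes with a value, the log2 ratios from day 1 to day 4 were 0.39, 0.13, -0.32 and -0.29. The mean over the 4 days was therefore close to 0, at -0.021 ± 0.35 (SD, 4 arrays; limma adjusted p = 0.966). HSPA1A is nearly identical to HSPA1B, for which no probe is named, so these probes may read both transcripts.

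The HSPA1A probes had a similar course over the days, with 27944_1 above the others. Probe 27944_1 read 0.61, 0.64, 0.17 and -0.038 on days 1 to 4. Probe 16597_1 read 0.04, -0.097, -0.57 and -0.40. Probe 27165_1 read 0.028, -0.14, -0.52 and -0.53. In each of these probes both late values lay below both early ones. Probe 17604_1, without a day 2 value, read 0.17, -0.38 and -0.20 on days 1, 3 and 4, and probe 26418_1 had a single value, 1.12 on day 1. That single value lifts the day 1 average: over the 3 probes with all 4 values HSPA1A read 0.23, 0.13, -0.31 and -0.32. Probe 27944_1 exceeded probe 27165_1 by 0.58, 0.77, 0.69 and 0.49 on days 1 to 4, a difference of 0.63 ± 0.12 (SD, 4 arrays) that kept its sign on each day. Its difference from 16597_1 was 0.60 ± 0.18, from 0.37 to 0.74, while 16597_1 and 27165_1 differed by 0.031 ± 0.072. The sign of the mean over the days thus depended on the probe, at 0.35 for 27944_1 and -0.29 for 27165_1, while the slopes of the complete probes were all below 0, between -0.18 and -0.24 log2 per day.

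HSP90AA1, the stress-inducible cytosolic HSP90, followed almost the same course. The gene averages from day 1 to day 4 were 0.44, 0.22, -0.11 and -0.25, with a mean of 0.076 ± 0.31 (SD, 4 arrays; limma adjusted p = 0.848). Days 1 and 2 were above the control and days 3 and 4 below it. Probe 19351_1 read 0.71, 0.54, 0.19 and -0.10. Probe 17010_1 read 0.53, 0.37, -0.058 and -0.069. Probe 17011_1 read 0.086, -0.25, -0.45 and -0.58. All 3 probes were highest on day 1 and lowest on day 4, and their slopes lay between -0.22 and -0.28 log2 per day. Probe 19351_1 exceeded probe 17011_1 by 0.63 ± 0.13 (SD, 4 arrays), so here too the mean over the days had a different sign for different probes, 0.33 and -0.30.

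HSP90AB1, the constitutive cytosolic HSP90, had values on days 3 and 4 alone, as its 2 probes had none on the other arrays. Probe 37759_1 read -0.18 and -0.15, and probe 37854_1 read -0.22 and -0.32. Its averages of -0.20 and -0.23 lay on the same side of 0 as those of HSP90AA1 on these days, and nothing can be said of days 1 and 2.

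**Figure D1:**
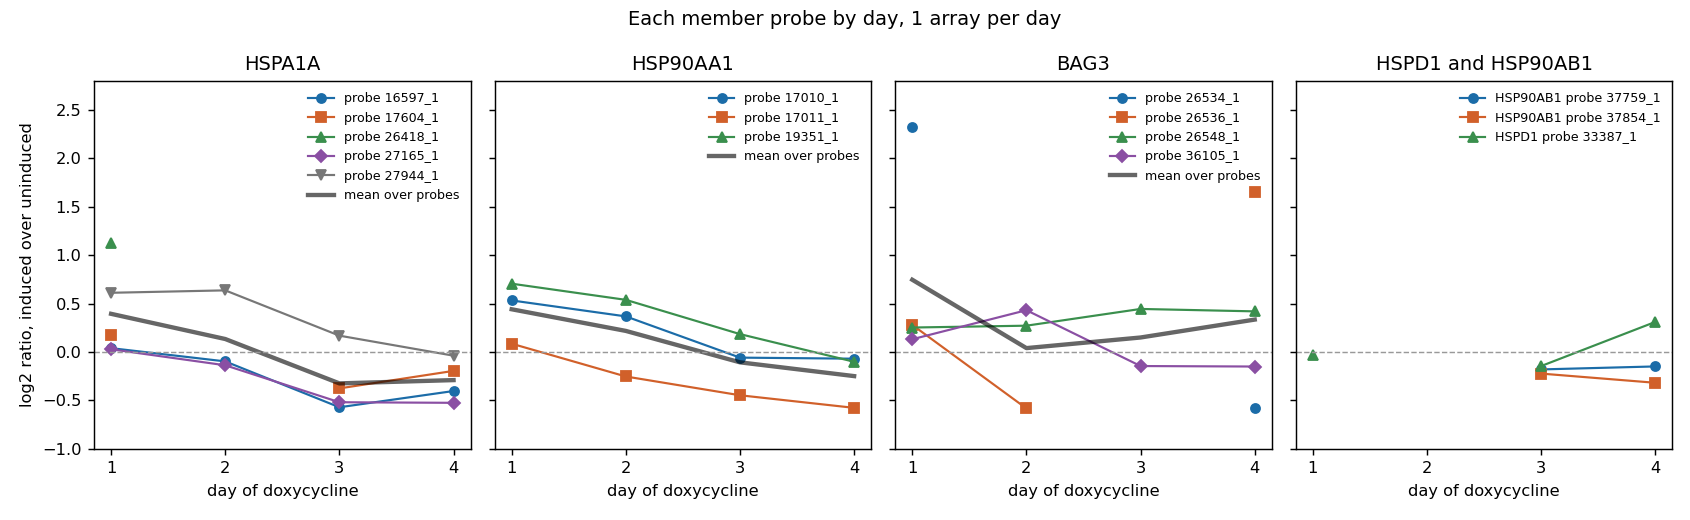
Log2 ratio of induced over uninduced cells (vertical axis) by day of doxycycline (horizontal axis) for each member probe, with the probe average in black for the genes with several complete probes. Points are single arrays and lines join neighbouring days that both have a value. In HSPA1A probe 27944_1 lies above 16597_1 and 27165_1, and in HSP90AA1 probe 17011_1 lies lowest. The complete probes of both genes have similar courses. The BAG3 values spread from -0.58 to 2.32, both ends from probes with missing values, while its complete probes lie between -0.15 and 0.45.

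BAG3, a co-chaperone that couples HSP70 to autophagy and binds small heat shock proteins, was above the control on all 4 days as a gene average, at 0.75, 0.040, 0.15 and 0.34. Its mean was 0.32 ± 0.31 (SD, 4 arrays), which is 1.25-fold and did not pass (limma adjusted p = 0.431). Without the day 1 array the mean was 0.18. The probes did not agree in their course. Probe 26548_1 read 0.25, 0.27, 0.45 and 0.42 on days 1 to 4, above 0 throughout. Probe 36105_1 read 0.13, 0.43, -0.15 and -0.15. The remaining probes had missing values and wide swings: 26534_1 read 2.32 on day 1 and -0.58 on day 4, and 26536_1 read 0.28, -0.58 and 1.65 on days 1, 2 and 4. Over the 2 complete probes the averages were 0.19, 0.35, 0.15 and 0.14, so the day 1 peak of the gene average came from probe 26534_1.

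HSPD1, the mitochondrial chaperonin also called HSP60, was represented by 1 probe, which read -0.027, -0.15 and 0.31 on days 1, 3 and 4 and had no value on day 2. The mean was 0.046 ± 0.24 (SD, 3 arrays; limma adjusted p = 0.917). It lay above the control on day 4, where HSPA1A and HSP90AA1 lay below it, and the difference between the genes was not tested.

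Whether induced cells differed from uninduced cells over the 4 days was tested as the mean log2 ratio against 0 with limma over 7713 features. None of the 4 members passed, against 26 features (0.337%) over the whole table. With any 1 array left out the count came to between 3 and 5. Those fits took features with values on at least 2 arrays, not 3, and tested 7791 to 8859 of them. With limma, 0 of the 4 members had an unadjusted p under 0.05 as well, against 12.5% of all features. Tested as single probes, 26548_1 of BAG3 reached that level, with a mean of 0.35 (limma adjusted p = 0.278). The other member probes with values on at least 3 arrays did not. The median of the members' means was 0.061, against -0.032 over all features, and 3 of the 4 lay above 0.

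**Figure D2:**
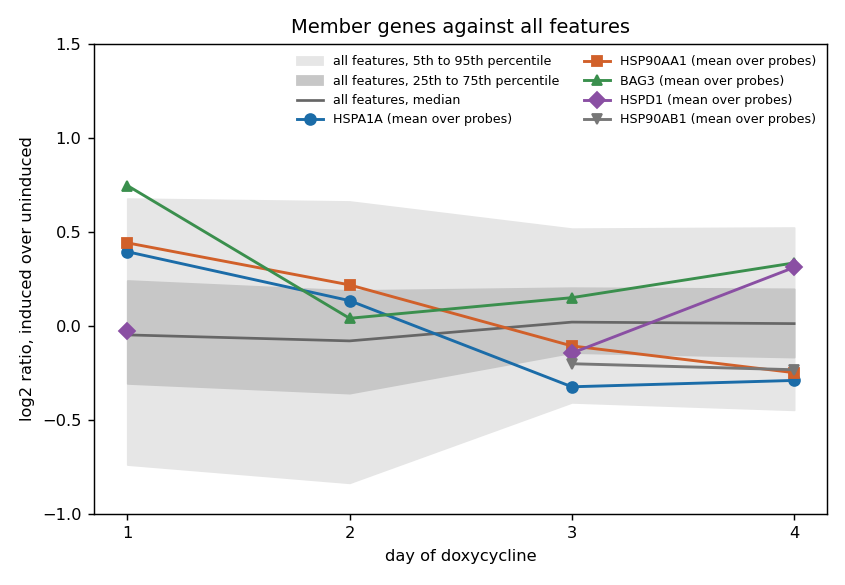
Gene averages of the log2 ratio (vertical axis) by day (horizontal axis) for the 5 members with a probe, over the spread of the 6427 features with values on all 4 arrays (grey bands and line, as labelled in the plot). HSPA1A and HSP90AA1 lie above the 75th percentile of all features on day 1 and below the 25th percentile on day 4.

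The course over the days was tested as a regression of the log2 ratio on time, over the 6427 features with values on all 4 arrays. The slope, in log2 per day, of HSP90AA1 was -0.24 ± 0.081 (SE; limma adjusted p = 0.316) and that of HSPA1A was -0.25 ± 0.089 (limma adjusted p = 0.319). The slope of BAG3 was -0.11 ± 0.12 (limma adjusted p = 0.651). None of the 3 passed, and neither did any other feature (0% of 6427). An unadjusted limma p under 0.05 with a slope below 0 was found for HSPA1A and HSP90AA1, 2 of 3 members, and for 5.73% of all features. As single probes, 27944_1 of HSPA1A and 19351_1 of HSP90AA1 reached that level, and the other complete probes of these 2 genes did not. The slopes of both genes were known when the genes were listed, so nothing is read from that count.

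As a step, the mean of days 3 and 4 minus that of days 1 and 2 was -0.57 ± 0.19 log2 for HSPA1A (SE; limma adjusted p = 0.244), -0.51 ± 0.19 for HSP90AA1 (limma adjusted p = 0.267) and -0.15 ± 0.28 for BAG3 (limma adjusted p = 0.782). Again no member and no other feature passed (0% of 6427). An unadjusted limma p under 0.05 with a difference below 0 was found for the same 2 members and for 5.21% of all features. Of their complete probes, 27944_1, 17010_1 and 19351_1 reached that level and the others did not. Of the members' 8 probes with all 4 values, 7 had both late values below both early values, against 23.9% of all complete probes. This order is part of the same pattern, and probes of a gene share their RNA. The slopes of HSPA1A and HSP90AA1 were known when the genes were listed, so nothing is read from the counts of the step or of this order. The median feature had a difference of 0.061 log2, above 0, and 44.4% of differences were below 0. Without the day 2 array the difference of HSPA1A was -0.70 and passed (limma adjusted p = 0.0343), but so did 1301 of 7250 features, because the spread was then estimated from days 3 and 4 alone.

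A constant dye bias of a probe cancels in the slope and in the step but not in the mean. The slope of HSPA1A was -0.21 log2 per day over its 3 complete probes. The sources used here do not say whether a control culture was kept for each day, so time in culture and induction cannot be told apart, and neither can doxycycline itself and the transgene. The 4 arrays are different days with 1 array each, and no label gives separate cultures. The spread behind each p-value is therefore that of these arrays and may be technical. For the mean it also holds any change over the days, such as the courses of HSPA1A and HSP90AA1.

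The ER counterparts of HSPA1A and HSP90AA1 stayed above the control on all 4 days. HSPA5 (BiP, the HSP70 of the ER), represented by 1 probe, read 0.98, 0.62, 0.29 and 0.73 on days 1 to 4. It exceeded HSPA1A by 0.58, 0.49, 0.61 and 1.02, a mean difference of log2 ratios of 0.67 ± 0.23 (SD, 4 arrays). HSP90B1 (GRP94, the HSP90 of the ER) read 0.96, 0.91, 0.27 and 0.46. It exceeded HSP90AA1 by 0.52, 0.69, 0.37 and 0.71, or 0.57 ± 0.16 (SD, 4 arrays). Both differences of the gene averages lay above 0 on 4 of 4 arrays, and the exact two-sided sign-flip permutation test gave p = 0.125 for each, the smallest value that 4 arrays allow. The slopes of HSPA5 (-0.11) and HSP90B1 (-0.22) were below 0 as well, the sign that HSPA1A and HSP90AA1 had. By single complete probes, HSP90B1 lay above HSP90AA1 on all 4 arrays in 6 of 6 pairs, with mean differences from 0.31 to 0.96. HSPA5 did so in 2 of 3 pairs with HSPA1A, and against probe 27944_1 its difference was -0.015 on day 2 and 0.31 on average. The differences between the genes were close in size to those between 2 probes of 1 gene (0.63 in HSPA1A and 0.63 in HSP90AA1), so probe and gene cannot be told apart in them.

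**Figure D3:**
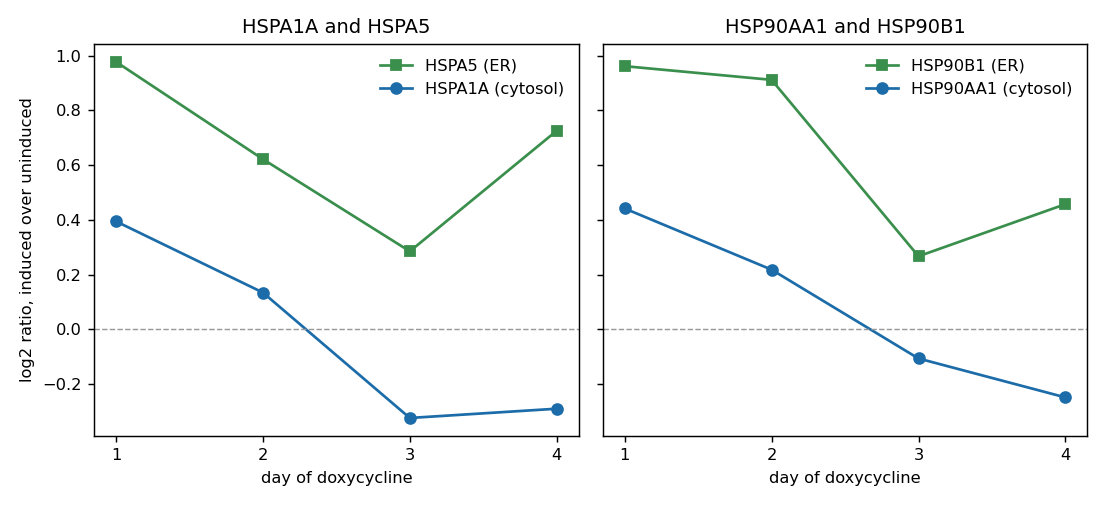
Log2 ratio of induced over uninduced cells (vertical axis) by day of doxycycline (horizontal axis) for the cytosolic members HSPA1A and HSP90AA1 and their ER counterparts HSPA5 and HSP90B1, as gene averages on single arrays. The average of the ER gene lies above that of the cytosolic gene on each day, and among these 4 the cytosolic genes alone cross 0.

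Other chaperones were grouped by role in lists written with earlier results known. In each of the chaperone lists none of the measured genes passed limma's adjusted threshold on the mean or on the slope, and counts at an unadjusted limma p under 0.05 are given per list. Over all features such a p was found for 12.5% of means (6.47% with a mean above 0) and for 15% of slopes (5.73% with a slope below 0). None of the 10 small heat shock proteins listed had a named probe. Of the cytosolic HSP70 and HSP110 list, 3 of 12 genes were measured, and 1 of 3 means and 1 of 2 slopes, those of HSPA2 and HSPA1A, had an unadjusted p under 0.05. HSPA2, an HSP70 known for its role in the testis, had the largest mean in size, at -0.90 ± 0.46 over 3 arrays (values of -1.12, -0.37 and -1.21 on days 1, 3 and 4; limma adjusted p = 0.205). HSPA1L, a relative of HSPA1A with its own probes, had a mean of -0.091 and a slope of -0.093, and its day 3 and 4 values (-0.15 and -0.24) were also below those of days 1 and 2 (0.0135 and 0.017).

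Among HSP90 and its co-chaperones, 6 of 23 were tested, 3 with a mean above 0 and 3 below, and 3 had an unadjusted p under 0.05 on the mean and 1 on the slope. PTGES3 (p23, which stabilises the closed form of HSP90) had a mean of 0.57 ± 0.44 and NUDCD2 of -0.39 ± 0.37. FKBP4, an immunophilin of the HSP90 complex, had a slope of -0.16. The median slope was -0.049, with HSP90AA1 at one end and NUDCD2 (0.24) at the other.

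The list of BAG proteins and HSP70 regulators had a median mean of 0.32, with 5 of 6 above 0. It also held HSPBAP1, a partner of the small heat shock protein HSPB1 and not an HSP70 regulator. Without HSPBAP1 the median would be that of BAG3 (0.32). An unadjusted p under 0.05 was found for 3 of the 6 means, those of BAG1, BAG2 and HSPBAP1. BAG2, an inhibitor of the ubiquitin ligase CHIP, had a mean of 0.42 ± 0.33, HSPBAP1 of 0.34 ± 0.24 and BAG1 of 0.33 ± 0.25. BAG3, at 0.32, did not reach that level. The largest slopes were those of BAG6 (-0.21) and BAG1 (-0.14), and the 6 slopes were evenly divided, 3 above and 3 below 0. J-domain proteins, the partners of HSP70, were tested for 6 genes, which had means between -0.15 (DNAJC2) and 0.099 (DNAJA4), with DNAJC16 at -0.14, and 0 had an unadjusted p under 0.05. Single days lay further out, such as -0.54 for DNAJC2 on day 2. Their largest slopes were 0.09 (DNAJC2) and -0.082 (DNAJA4).

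The cytosolic TRiC chaperonin and its partner prefoldin, which fold actin and tubulin, had 3 measured genes. CCT8 read 0.74, 0.32, 0.25 and 0.002 on days 1 to 4, and CCT3 read 0.41, -0.018, -0.14 and -0.27. VBP1, a prefoldin subunit, had a mean of 0.14. All 3 slopes were below 0, with a median of -0.22, which is close to the slopes of HSPA1A and HSP90AA1, and 2 of 3, those of CCT8 and CCT3, had an unadjusted p under 0.05, against 5.73% of all features with a slope below 0 (limma adjusted p = 0.319 and 0.33).

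In the mitochondrion, the list of chaperones and proteases was evenly divided, with 3 of 6 slopes below 0 and a median of -0.003. Of 7 means 1 (DNAJA3) had an unadjusted p under 0.05, and of 6 slopes 1 (HSPA9). HSPA9 (mortalin, the mitochondrial HSP70) read 0.45, -0.28, -0.21 and -0.46, with a slope of -0.27 ± 0.10 (SE; limma adjusted p = 0.328). DNAJA3, its J-domain partner, had a mean of 0.32 ± 0.20 and TRAP1, the mitochondrial HSP90, of -0.20 ± 0.20. CLPP, a matrix protease subunit, had a slope of -0.15.

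The list of ER chaperones, which also held the transcription factors XBP1 and ATF6, lay highest of these lists on the mean. Of its means 12 of 13 were above 0, with a median of 0.40, that of XBP1. An unadjusted p under 0.05 was found for 7 of them, ATF6 included, against 6.47% of all features. Without XBP1 and ATF6 the median would be that of DNAJB9 (0.31), below that of the BAG list (0.32). Of the slopes in this list 11 of 13 were below 0 (median -0.11), 1 of them, that of XBP1, at an unadjusted p under 0.05. PDIA4, a disulfide isomerase, had a mean of 0.82 ± 0.45. XBP1, a transcription factor of the ER stress response that is also among the plasma cell markers below, had a slope of -0.36 ± 0.085 (SE; limma adjusted p = 0.304). Over all features 56% of means and 45.8% of slopes were below 0, with a median slope of 0.019.

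**Figure D4:**
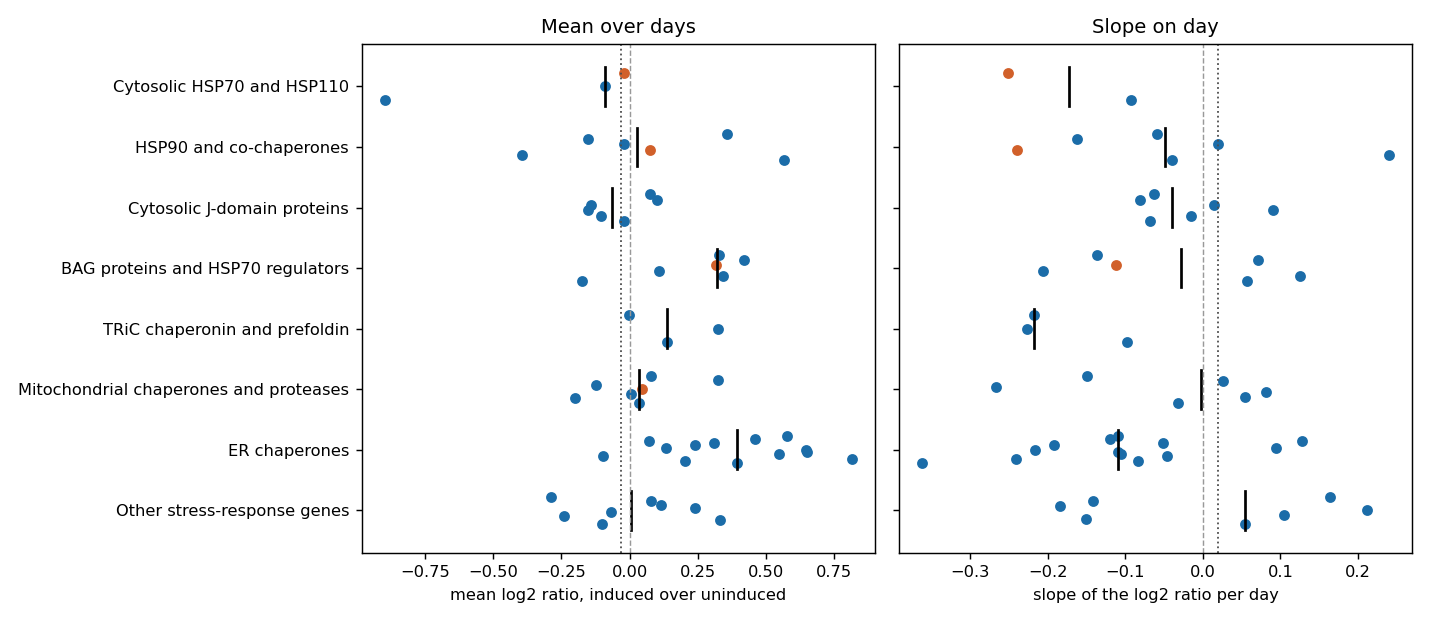
Mean log2 ratio over the days (left, horizontal axis) and slope per day (right, horizontal axis) for each measured gene of 8 lists (rows, 1 point per gene, members in orange and other genes in blue). Black bars are list medians, the dashed line is 0 and the dotted line is the median of all features. The list of ER chaperones, XBP1 and ATF6 included, has its median furthest to the right on the mean. The list of BAG proteins and HSP70 regulators includes HSPBAP1, a partner of HSPB1.

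Most plasma cell markers had slopes of the same sign as HSPA1A and HSP90AA1. Of 9 markers 8 had a slope below 0, with a median of -0.21 log2 per day, and their median ratio was 0.58, 0.70, 0.24 and 0.096 on days 1 to 4. The largest means were those of JCHAIN (1.00), the joining chain of secreted antibodies, and CD38 (0.69), and the largest slopes those of XBP1 (-0.36) and SDC1 (-0.33). T cell markers had 3 of 5 slopes below 0. CD5 had a mean of -0.42, CD3D a mean of 0.36 and a slope of 0.28, and CD7 a slope of -0.24. Myeloid markers had 1 of 3 slopes below 0. CD14 had a mean of 0.37 and a slope of 0.32, AIF1 a mean of -0.28 and ITGAM a slope of -0.093. Stromal and red cell markers had 3 of 4 slopes below 0. In this list HBB, a red cell globin, was the 1 gene of all the lists that passed: its mean was 0.85 ± 0.091 (SD, 4 arrays; limma adjusted p = 0.0381), with 0.85, 0.98, 0.80 and 0.78 on days 1 to 4, while HBA1, another globin, had a mean of -0.14. The part of these markers in the courses of the heat shock genes was not tested, and as ratios carry no level they cannot check the cell type.

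The genes whose course was nearest to those of the members with the widest range of the gene average, HSPA1A (0.72 log2 from highest to lowest day) and BAG3 (0.71), were found among 3766 named genes by the root mean square difference over the 4 days. For HSPA1A they were BCL2L1 (0.038 log2), GNB2 (0.040) and PURB (0.053), against a median of 0.43 over all genes compared. For BAG3 they were CDKN1A (0.094), RPN1 (0.12) and ASAP2 (0.12), against a median of 0.51. The BAG3 average compared here includes the day 1 value of 2.32 of probe 26534_1. That of HSPA1A includes the lone day 1 value of 1.12 of probe 26418_1. It read 0.39 on day 1, against 0.23 over complete probes, a shift larger than the distances given. Over complete probes the ranges were 0.22 for BAG3, 0.55 for HSPA1A and 0.69 for HSP90AA1. With 4 arrays a near course is a description.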

How the data were processed

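Log ratios of 4 two-colour arrays were used as deposited. The authors' values were read as log2 of Cy5 over Cy3 from the dyes in the labels. Not given in the sources used here are background correction, normalization and spot filter. Per the labels' protocols, 50 µg of total RNA was labelled with each dye. Of 15246 probes, 10169 had 1 gene symbol, 4 several and 5073 are unnamed here; the Entrez identifiers of 10128 probes were found in RefSeq (GRCh38.p14) and gave the current symbols. Probes of a symbol were averaged per array, giving 9681 features.

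Means (at least 3 arrays) and slopes and steps (all 4 arrays) were fitted over all features with limma 3.58.1 in R 4.3.3, tested on simulated data, with two-sided p-values adjusted by Benjamini-Hochberg and called under 0.05. Members and lists were chosen with earlier results of these data known. Named genes were every member with a value and, per list, those past the threshold or else those with the 2 largest means and 2 largest slopes in size. Motifs were searched in RefSeq promoter windows. The number of arrays limits the precision. Alternatives varied probe averaging, scaling, weights, filters and arrays.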

Additional observations from a re-analysis of the deposited data

How the results depend on the processing

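The slopes of HSPA1A and HSP90AA1 stayed below 0 under all 12 alternatives run. Over the 11 in log2 per day they lay between -0.36 and -0.18 for HSPA1A and between -0.27 and -0.22 for HSP90AA1 (limma adjusted p from 0.0843 to 0.911). Per doubling of the day they were -0.38 and -0.35. The steps stayed below 0 under all 10 alternatives, with the one call given above. The means over the days were near 0 and changed sign. That of HSPA1A was 0.0071 with array medians subtracted, 0.26 with days 1 and 2 alone, 0.080 without day 3 and 0.068 without day 4. That of HSP90AA1 was -0.087 with array weights, -0.18 with days 3 and 4 alone and -0.046 without day 1. That of HSPD1 was -0.086 without day 4. For BAG3 the slope was 0.067 and the step 0.17 with its most complete probe alone, and 0.15 and 0.20 without day 1. The cause was not tested. Leaving out single arrays, the HSPA1A mean ranged from -0.16 to 0.080, the HSP90AA1 mean from -0.046 to 0.18, the HSPD1 mean from -0.086 to 0.14, the BAG3 mean from 0.18 to 0.41, the BAG3 slope from -0.30 to 0.15 and the BAG3 step from -0.50 to 0.20.

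The number of features called on the mean was 26. It was 55 with each probe a feature of its own, 3 with arrays scaled to the same spread and 291 with array weights. It was 10 with named features only and 42 with values on all 4 arrays. With fewer arrays it was 1 for days 1 and 2 alone, 569 for days 3 and 4 alone and 3 to 5 without single arrays. The fits on fewer arrays took features with values on at least 2 arrays, not 3. The step called 0 features, and 0 to 1301 without single arrays (1295 without day 1 and 1301 without day 2). No spot intensities were used, so the strength of the signals behind these ratios is unknown. The 1 array per day leaves values per day without a replicate check.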

Other observations

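Other genes of protein and oxidative stress had slopes on both sides of 0. Of 7 with values on all 4 arrays, 3 had a slope below 0, and the median slope was 0.055. HIF1A, the oxygen-regulated transcription factor, read 0.070, 0.071, 0.027 and 0.79 on days 1 to 4, and its slope was 0.21. GADD45B, a stress-induced growth arrest gene, had a slope of -0.18. The reductant thioredoxin (TXN) had a mean of 0.33 ± 0.30 and the stress-induced transcription factor ATF3 of -0.29 ± 0.43 (SD, 4 arrays). None of this list passed with limma, and 0 had an unadjusted p under 0.05 on the mean or the slope. HSBP1, which binds heat shock factor 1, read 0.18, 0.085, -0.048 and -0.37. The probe 30020_1, annotated to the HSPA8 pseudogene HSPA8P14, read -0.11, 0.33, 0.11 and 1.90, and whether it detects HSPA8 is not known here.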
